A study of Homo sapiens with 20 samples.

Results

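Long noncoding RNAs and host genes of small RNAs were followed in U-87MG, an established human glioblastoma cell line, on 20 Affymetrix arrays. Cells were exposed for 24 h to 40 µM of an aromatic keto acid or to the solvent DMSO alone, which reached at most 0.2% of the medium. The keto acids were I3P, which is indole-3-pyruvic acid, HPP, the hydroxyphenylpyruvic acid, and PP, phenylpyruvic acid. The cells of all 4 groups were U-87MG, for which the labels used here give no transgene or knockdown. Each group held 5 arrays, called biological replicates 1 to 5 in the labels, so the model is a single line, a single dose and a single time. Each p-value is set against the spread between these samples, in some fits after the replicate number is taken out. The study asked which of these acids switch on AHR, the aryl hydrocarbon receptor, which is a transcription factor with small-molecule ligands.

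The RNAs described here were chosen by name. A probe set with 1 gene symbol was taken where that symbol starts with LINC or SNHG, ends in -AS1, -AS2 or -AS3, or starts with MIR and ends in HG. This gave 119 of 11282 genes, namely 77 named as antisense to another gene, 25 intergenic RNAs (LINC), 11 microRNA host genes (MIR host) and 6 small nucleolar RNA host genes (SNHG). Each of the 119 had 1 probe set. Symbols of the platform annotation were first brought up to date, which changed the symbol of 26 of the 119. By the older symbols 128 probe sets would match, 25 of which now carry other names. Of these 25, 12 are now listed as protein coding (LINC00116 is now MTLN, LINC00493 is SMIM26 and LINC00961 is SPAAR). These include HNRNPU-AS1 and LINC00610, to which the update gave the symbols of the coding genes HNRNPU and COMMD9. Others are still listed as long noncoding and were left out by name alone, such as LINC00657, now NORAD (mean log2 level 11.73), and MIR143HG, now CARMN (10.37). The CARMN mean is raised by 1 I3P array at 13.92, while no array of the other groups was above 10.40. A further 21 probe sets that hold a matching symbol beside others, such as those of SNHG1, SNHG5, MIR17HG and MIR22HG, were not analysed here.

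A host gene is transcribed as a long RNA from which shorter ones are cut. MicroRNAs are released from hairpins by the nucleases Drosha and Dicer and pair with messenger RNAs through their seed, the bases near the 5′ end. Small nucleolar RNAs (snoRNAs) come from introns and guide chemical changes of ribosomal RNA, while the spliced SNHG transcript is often removed by nonsense-mediated decay. Antisense RNAs are read from the strand opposite to a neighbouring or overlapping gene and can act on it, or share its promoter region. In glioblastoma the miR-9, miR-125b and miR-155 microRNAs are among those studied as regulators of growth and differentiation. The arrays measured the long host RNA, not the processed small RNA.

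Of the 11 MIR host genes, 10 hold a microRNA on their own strand in the RefSeq tables (assembly GRCh38.p14), 30 mature sequences in all. The following are shown because hosts on different chromosomes, or a pair of hairpins in the same host, carry the same seed. The seed, bases 2 to 8, is in capitals. MIR100HG on chromosome 11 and MIR99AHG on chromosome 21 both carry a let-7, a miR-125b and a miR-99 or miR-100 hairpin, MIR9-2HG (chromosome 5) and MIR9-3HG (chromosome 15) give the same miR-9, and MIR29B2CHG carries a pair of miR-29 hairpins on chromosome 1. The microRNAs of MIR503HG (chromosome X) and MIR155HG (chromosome 21) are shown because these hosts had the largest differences between compounds and between replicates among the MIR hosts.
hsa-let-7a-5p (MIR100HG): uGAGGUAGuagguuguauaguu
hsa-let-7c-5p (MIR99AHG): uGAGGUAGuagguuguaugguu
hsa-miR-100-5p (MIR100HG): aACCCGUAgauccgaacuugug
hsa-miR-99a-5p (MIR99AHG): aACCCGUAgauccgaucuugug
hsa-miR-125b-5p (MIR100HG and MIR99AHG): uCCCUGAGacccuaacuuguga
hsa-miR-9-5p (MIR9-2HG and MIR9-3HG): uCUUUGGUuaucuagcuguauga
hsa-miR-29c-3p (MIR29B2CHG): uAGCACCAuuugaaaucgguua
hsa-miR-29b-3p (MIR29B2CHG): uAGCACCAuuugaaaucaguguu
hsa-miR-503-5p (MIR503HG): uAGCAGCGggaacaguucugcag
hsa-miR-155-5p (MIR155HG): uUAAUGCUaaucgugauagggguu

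The 6 SNHG members hold 15 annotated snoRNAs, 5 of them in SNHG17, 4 in SNHG12, 2 each in SNHG32 and SNHG7, and 1 each in SNHG15 and SNHG8. Transcripts of this family are known to begin with a C followed by a run of pyrimidines, the terminal oligopyrimidine element also found in messenger RNAs of ribosomal proteins. The stretch from 15 bases before to 35 bases from the annotated start onward is shown for the 5 members that the RefSeq promoter table holds, with a pyrimidine run that begins with C at that start in capitals.
SNHG12 (chr1:28581839-28581888, minus strand): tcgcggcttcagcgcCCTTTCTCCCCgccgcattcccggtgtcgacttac
SNHG32 (chr6:31834901-31834950, plus strand): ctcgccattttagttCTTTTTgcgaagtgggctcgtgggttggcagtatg
SNHG7 (chr9:136728150-136728199, minus strand): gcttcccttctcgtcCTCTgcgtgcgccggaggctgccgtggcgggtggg
SNHG8 (chr4:118278747-118278796, plus strand): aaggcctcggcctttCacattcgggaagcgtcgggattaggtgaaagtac
SNHG17 (chr20:38435294-38435343, minus strand): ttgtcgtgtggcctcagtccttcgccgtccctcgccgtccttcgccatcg
A run of at least 5 stood at the annotated start of SNHG12 (11 bases) and SNHG32 (6 bases), that is 2 of 5 SNHG genes, against 4.04% of 27305 promoters in the table and 5.0% of the 100 members it holds. The search reads only the 1 annotated start of each gene.

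Values are log2 expression of the robust multi-array average (RMA), on which a difference of 1 is a doubling. The 119 RNAs were dimmer than most genes and varied more between arrays. Their median level was 8.67 against 9.25 for all genes, and 102 of them (85.7%) lay below the median gene, where 50% of all genes do. The antisense RNAs had a median of 8.66, the LINC RNAs 8.72, the MIR hosts 8.67 and the SNHG genes 9.27. All of them had passed a limit on dim probe sets that the deposited table appears to carry, since no probe set had a mean below 7.94. Levels of different genes come from different probes and give no order of abundance.

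VIM-AS1, antisense to the gene of the intermediate filament vimentin, had the highest signal of the 119, between 10.89 and 11.48 over the 20 arrays. MIR100HG lay between 10.50 and 10.99, LINC00656 between 9.97 and 10.96, and HOXB-AS3 of the HOXB cluster of developmental genes between 9.89 and 10.78. LINC01963 had a mean of 9.81. LINC00601 had the lowest mean, 8.01, and NCAM1-AS1 followed at 8.02. The range over the arrays exceeded 1 for 37 members (31.1%), against 15.6% of all genes. SRRM2-AS1 had the widest range at 2.59, followed by MIR155HG at 2.43, LINC01465 at 2.28, NECTIN3-AS1 at 2.22, LINC01550 at 2.15 and KCND3-AS1 at 2.10. Wide ranges were also seen for LIN28B-AS1 (1.80), DGUOK-AS1 (1.78) and LINC00691 (1.72). Among the defining markers of the cells, 8 of 11 glial or mesenchymal genes were in the table (vimentin, nestin, CD44, GFAP and 4 others), while SOX2, OLIG2 and S100B were not. Markers of other cell types were in it too, 3 of 6 of blood and microglia, 3 of 4 of neurons, 2 of 4 of epithelium and 0 of 3 of oligodendrocytes, so presence in the table does not mark a cell type.

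The keto acids gave no called difference from DMSO among the 119 RNAs. Tested with limma over all genes, 0 of the 119 were past an adjusted p of 0.05 in any of the 6 comparisons. The share of all genes called was 0.0798% for I3P against DMSO, 0.0886% for I3P against PP, and 0% for HPP against DMSO, PP against DMSO, I3P against HPP and HPP against PP. An unadjusted p under 0.05 was held by 1 member for I3P against DMSO (4.51% of all genes), 3 for HPP (1.43%), 1 for PP (1.54%), 2 for I3P against HPP (3.4%), 5 for I3P against PP (5.07%) and 5 for HPP against PP (1.63%). Arrays of the same replicate number deviated together, so a second fit took the number as a block, which keeps each difference and changes its error. With the block, 9 members had an unadjusted p under 0.05 for I3P against DMSO (11% of all genes), 7 for HPP (4.97%), 5 for PP (4.25%), 10 for I3P against HPP (9.74%), 13 for I3P against PP (12.6%) and 6 for HPP against PP (5.27%). After adjustment 1 member was called with the block, MIR503HG between I3P and PP, where 0.904% of all genes were. In the other 5 comparisons 0 members were called with the block, beside 0.603% of all genes for I3P, 0.0443% for HPP and 0% for PP against DMSO, 0.115% for I3P against HPP and 0.0266% for HPP against PP. The comparisons share arrays, since all 3 compounds were set against the same 5 DMSO arrays.

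The median difference of the 119 was -0.029 for I3P against DMSO, -0.021 for HPP and 0.0035 for PP, beside -0.00011, 0.0010 and -0.0047 for all genes. Of the 119, 70 lay below DMSO with I3P (58.8%, all genes 50%), 73 with HPP (61.3%, all genes 49.4%) and 58 with PP (48.7%, all genes 52.7%). Between compounds, 55 lay lower with I3P than with HPP (46.2%, all genes 49.7%), 63 lower with I3P than with PP (52.9%, all genes 48.5%) and 67 lower with HPP than with PP (56.3%, all genes 48.1%). The same direction in all 5 pairs of equal number was held by 11 members for I3P, 10 for HPP and 5 for PP against DMSO. It was held by 8 for I3P against HPP, 12 for I3P against PP and 7 for HPP against PP. The share over all genes was not counted, so 5 of 5 pairs does not by itself set a member apart. The median standard error of a difference was 0.139 for the members without the block and 0.0965 with it, against 0.107 and 0.0789 for all genes.

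**Figure D1:**
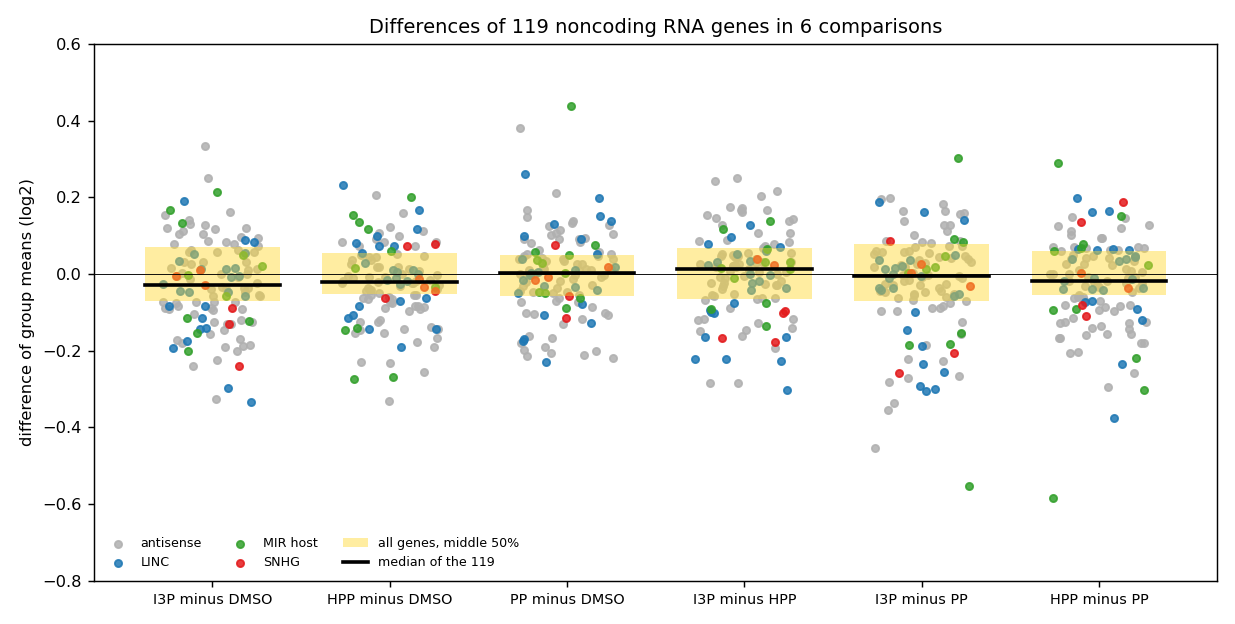
Differences of group means (log2, vertical axis) of the 119 RNAs in the 6 comparisons, 1 point a gene, coloured by class, with the median as a black line and the middle 50% of all genes as a yellow band. The medians lie between -0.029 and 0.013. MIR503HG has the largest difference at 0.44 (PP minus DMSO), -0.55 (I3P minus PP) and -0.59 (HPP minus PP). The furthest antisense RNA is close to it at 0.38 (PP minus DMSO) and -0.45 (I3P minus PP), and the furthest LINC RNA is at -0.37 (HPP minus PP).

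MIR503HG, the host of miR-503, a microRNA that targets cyclins, was the member with the largest differences. With DMSO it was at 8.95, 9.04, 9.39, 8.31 and 8.67 in replicates 1 to 5. With I3P it was at 9.12, 8.98, 9.00, 8.40 and 8.27, and with HPP at 8.47, 8.94, 9.32, 8.22 and 8.65. With PP it was at 9.53, 9.26, 9.48, 9.11 and 9.16. Every PP array lay above the array of the same number in each other group, but the groups overlap. PP replicates 2, 4 and 5 lay below DMSO replicate 3 and HPP replicate 3, and PP replicate 4 below I3P replicate 1. The I3P mean was 8.75 ± 0.39 and the PP mean 9.31 ± 0.19 (SD, n = 5), a difference of -0.55 (95% interval with the block -0.81 to -0.29), or 1.47-fold. Limma's adjusted p was 0.0434 with the block, 0.812 without it and 0.102 with the replicate number as a random block (consensus correlation 0.401), so the call rests on the fixed block. With the block the call was lost in 14 of 20 fits that left out 1 array, where the adjusted p ran from 0.0175 to 0.149.

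HPP carries a hydroxyl group on the ring that PP lacks, and HPP minus PP was -0.59 for MIR503HG (1.50-fold, interval with the block -0.85 to -0.32). This difference did not pass (adjusted p = 0.159 with the block and 1.00 without it). PP minus DMSO was 0.44 (interval 0.18 to 0.70, higher in 5 of 5 pairs, adjusted p = 1.00 in either fit). HPP minus DMSO was -0.15 (interval -0.41 to 0.11, lower in 5 of 5 pairs), and I3P minus DMSO was -0.11 (interval -0.38 to 0.15). I3P minus HPP, an indole against a phenol ring, was 0.03 (interval -0.23 to 0.29). The 300 bases around the annotated start of MIR503HG, 250 before it and 50 from it onward, are given because this was the member called. They were searched on both strands for GCGTG, the core letters of the element that AHR binds with ARNT, and the match is in capitals.
MIR503HG (chrX:134546581-134546880, minus strand): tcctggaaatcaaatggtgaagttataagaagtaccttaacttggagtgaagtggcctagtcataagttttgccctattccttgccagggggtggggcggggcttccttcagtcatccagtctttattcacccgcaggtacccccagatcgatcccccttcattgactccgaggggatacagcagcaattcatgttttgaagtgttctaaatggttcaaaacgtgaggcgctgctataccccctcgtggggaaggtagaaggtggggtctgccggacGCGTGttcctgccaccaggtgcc
The window holds 1 match, past the start. These letters stood in 49 of 100 member promoters (49.0%) and in 36.3% of all 27305. The median GC content was 62.5% and 58.33% respectively, and a match says nothing of binding.

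The other MIR hosts did not pass in any comparison in either fit. MIR100HG in replicates 1 to 5 was at 10.55, 10.50, 10.54, 10.71 and 10.81 with I3P and at 10.63, 10.64, 10.86, 10.89 and 10.99 with PP. Each I3P array lay below the PP array of its number, while the groups overlap (difference -0.18, interval with the block -0.29 to -0.074, adjusted p = 0.116 with the block). MIR99AHG, the host with the same seeds on another chromosome, was at -0.15 in that comparison (interval -0.39 to 0.088). The difference of MIR99AHG from DMSO was -0.20 with I3P and -0.27 with HPP. MIR29B2CHG was 0.30 above PP with I3P and 0.29 above it with HPP, and neither difference passed (adjusted p = 0.411 and 0.896 with the block). MIR205HG, host of an epithelial microRNA, had differences from DMSO of -0.15, -0.27 and 0.03 with I3P, HPP and PP. For MIR155HG, MIR31HG, MIR1915HG, MIR3667HG, MIR9-2HG and MIR9-3HG the differences from DMSO lay between -0.14 and 0.17. The interval of MIR155HG with I3P reached from -0.52 to 0.40 with the block.

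None of the 6 SNHG genes passed in any comparison in either fit over all 20 arrays. SNHG12 was at 8.95, 9.28, 9.29, 9.50 and 9.13 with DMSO and at 8.92, 9.01, 9.23, 9.04 and 8.74 with I3P. It was at 9.03, 9.25, 9.20, 9.37 and 8.99 with HPP and at 9.19, 9.26, 9.28, 9.55 and 8.96 with PP. I3P gave the lowest value in replicates 1, 2, 4 and 5, and the groups overlap. The difference from DMSO was -0.24 (standard error 0.12, interval with the block -0.38 to -0.097, lower in 5 of 5 pairs). Limma's adjusted p was 0.999 without the block and 0.142 with it. Against PP the difference was -0.26 (lower in 5 of 5 pairs, adjusted p = 0.967 without and 0.0951 with the block), and against HPP -0.18 (lower in 4 of 5). Without I3P replicate 3, SNHG12 passed against PP with the block (difference -0.31, adjusted p = 0.0439). No other block fit with 1 array left out called SNHG12 in this comparison.

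SNHG8 had a difference of -0.21 between I3P and PP (9.59 ± 0.16 against 9.80 ± 0.060, SD, n = 5, lower in 5 of 5 pairs, adjusted p = 0.138 with the block), and of -0.13 between I3P and DMSO. SNHG7 was at 9.34, 9.43, 9.27, 9.51 and 9.43 with DMSO, at 9.53, 9.61, 9.39, 9.36 and 9.47 with HPP and at 9.34, 9.26, 9.32, 9.29 and 9.21 with PP. All 5 HPP arrays stood above all 5 PP arrays, the 1 member where these groups do not overlap in a comparison in which 0.293% of all genes do not. The difference was 0.19 (interval with the block 0.061 to 0.32) and did not pass (adjusted p = 1.00 without and 0.746 with the block). SNHG15 was at -0.09 and SNHG17 at -0.0046 with I3P against DMSO, and SNHG32 at 0.01. Of the 6 SNHG genes 5 lay below DMSO with I3P, with a median difference of -0.059, and 4 lay below it with HPP (median -0.023) and with PP (median -0.012). Of all genes 50%, 49.4% and 52.7% lay below DMSO.

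Among the LINC RNAs, LINC00460, an intergenic RNA reported at high levels in carcinomas, had the largest difference from DMSO with I3P. It was at 8.77, 8.96, 9.50, 8.89 and 9.05 with DMSO and at 8.74, 8.60, 9.32, 8.36 and 8.48 with I3P. With HPP it was at 8.77, 8.71, 9.33, 8.89 and 8.94, and with PP at 8.85, 8.88, 9.48, 8.99 and 8.80. Replicate 3 was the highest array in every group, and the I3P array was the lowest of its number in all 5 replicates. The difference from DMSO was -0.33 (interval with the block -0.50 to -0.16, adjusted p = 0.999 without the block and 0.0813 with it). Against PP it was -0.30 (lower in 5 of 5 pairs, adjusted p = 0.106 with the block) and against HPP -0.23 (adjusted p = 0.382 with the block). LINC02693 was 0.30 below DMSO and 0.30 below HPP with I3P (adjusted p = 0.392 and 0.455 with the block). Neither LINC00460 nor LINC02693 passed. Of the 25 LINC RNAs 16 lay below DMSO with I3P, 13 with HPP and 12 with PP.

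**Figure D2:**
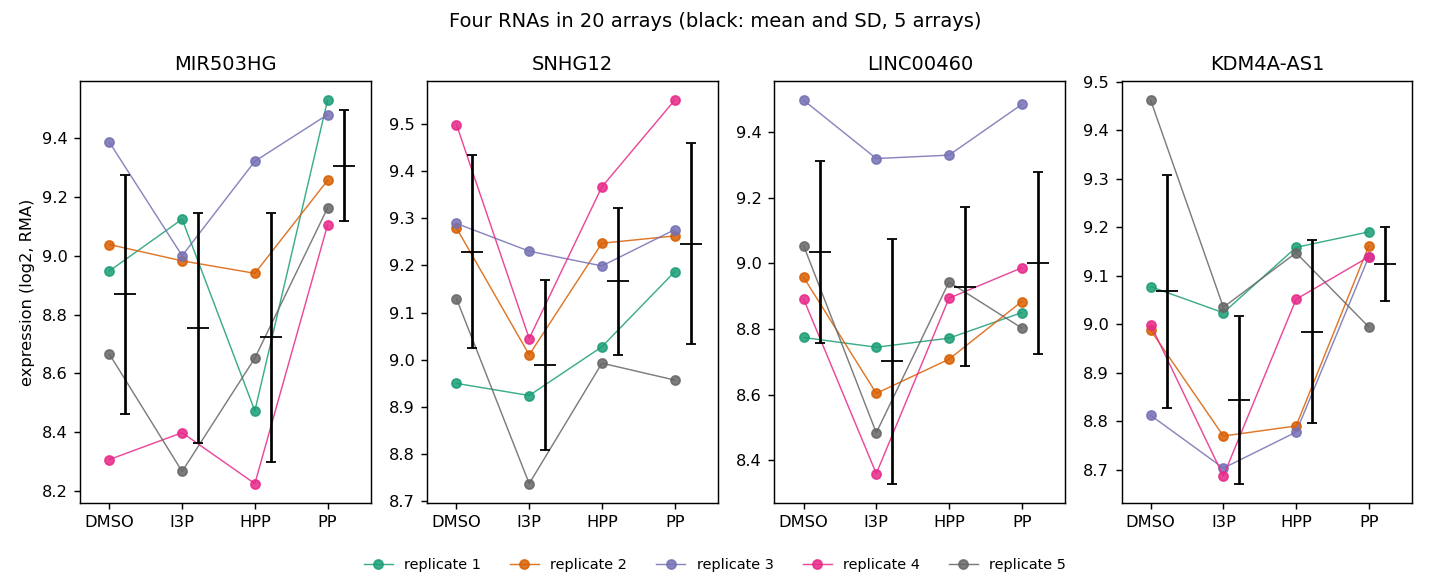
Log2 expression (vertical axes) of MIR503HG, SNHG12, LINC00460 and KDM4A-AS1 by treatment, 1 coloured line for each replicate number, with the mean and SD of 5 arrays in black. MIR503HG is highest with PP in every replicate, LINC00460 is lowest with I3P in every replicate, and the groups overlap in all 4 panels.

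Antisense RNAs did not pass in any comparison in either fit over all 20 arrays. KDM4A-AS1, antisense to a histone demethylase gene, was at 9.08, 8.99, 8.81, 9.00 and 9.46 with DMSO, at 9.02, 8.77, 8.70, 8.69 and 9.03 with I3P and at 9.19, 9.16, 9.14, 9.14 and 8.99 with PP. I3P lay below DMSO in 5 of 5 pairs (difference -0.22, adjusted p = 0.355 with the block) and below PP in 4 of 5 (difference -0.28, adjusted p = 0.870 without and 0.175 with the block). Without PP replicate 5, the array of the pair that went the other way, KDM4A-AS1 passed against PP with the block (difference -0.38, adjusted p = 0.0309). No other block fit with 1 array left out called KDM4A-AS1 in this comparison. SIAH2-AS1, antisense to the gene of a ubiquitin ligase, was at 8.33, 8.34, 8.29, 8.29 and 8.37 with DMSO and at 8.25, 8.26, 8.08, 8.02 and 8.29 with HPP. All 5 HPP arrays lay below all 5 DMSO arrays, the closest by less than the 2 decimals show. It was the 1 member whose groups do not overlap here, beside 0.133% of all genes. The difference was -0.14 (adjusted p = 1.00 without and 0.944 with the block). In the other comparisons 0 members had groups apart, beside 0.833% of all genes for I3P and 0.213% for PP against DMSO, 0.674% for I3P against HPP and 1.15% for I3P against PP.

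The remaining antisense RNAs with the smallest p-values had differences of 0.11 to 0.33 in size. DLGAP1-AS2 was at -0.24 with I3P and -0.18 with HPP against DMSO, and ZFX-AS1 at 0.33 with I3P (higher in 5 of 5 pairs, adjusted p = 0.196 with the block). With HPP, MBNL1-AS1, named for a splicing regulator, was at -0.25, STXBP5-AS1 at -0.33 and AGAP2-AS1 at 0.11 against DMSO. With PP, OSGEPL1-AS1 was at 0.17, MBNL1-AS1 at -0.21 and RASSF8-AS1 at -0.20. Between I3P and HPP, FAM83C-AS1 was at 0.25, ASMTL-AS1 at 0.22, FGD5-AS1 at 0.15 and AGAP2-AS1 at -0.12, and between HPP and PP, GABPB1-AS1 was at -0.295. The smallest adjusted p among all 77 was 0.870 without the block and 0.175 with it, both for KDM4A-AS1 between I3P and PP. For scale, the AHR target TIPARP had a difference of 1.03 from DMSO with I3P in the same fit (adjusted p = 0.0234).

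The 119 RNAs differed by replicate number in many more calls than by compound. An F test of the number with the group as a covariate, in limma over all genes, called 69 of 119 members (58%) and 46.5% of all genes. Without number 3 it called 41 members (34.5%) and 21.9% of all genes. By class it called 19 of 25 LINC RNAs, 4 of 6 SNHG genes, 6 of 11 MIR hosts and 40 of 77 antisense RNAs. The number took a median of 57.4% of a member's sum of squares within groups and 54.0% for all genes, where 25% is expected with no effect of the number. What the number stands for beyond a biological replicate is not given in the labels, and its source was not tested. In these bulk samples fewer cells that make an RNA and less RNA per cell cannot be told apart. Among the 119, 6 were called with their highest mean in number 1 (8.46% of all genes were), 9 in number 2 (4.69%), 19 in number 3 (14.6%), 14 in number 4 (8.64%) and 21 in number 5 (10.2%). The lowest mean of a called member was in number 1 for 18 (6.02% of all genes), number 2 for 8 (5.21%), number 3 for 19 (13.9%), number 4 for 10 (7.47%) and number 5 for 14 (14%).

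**Figure D3:**
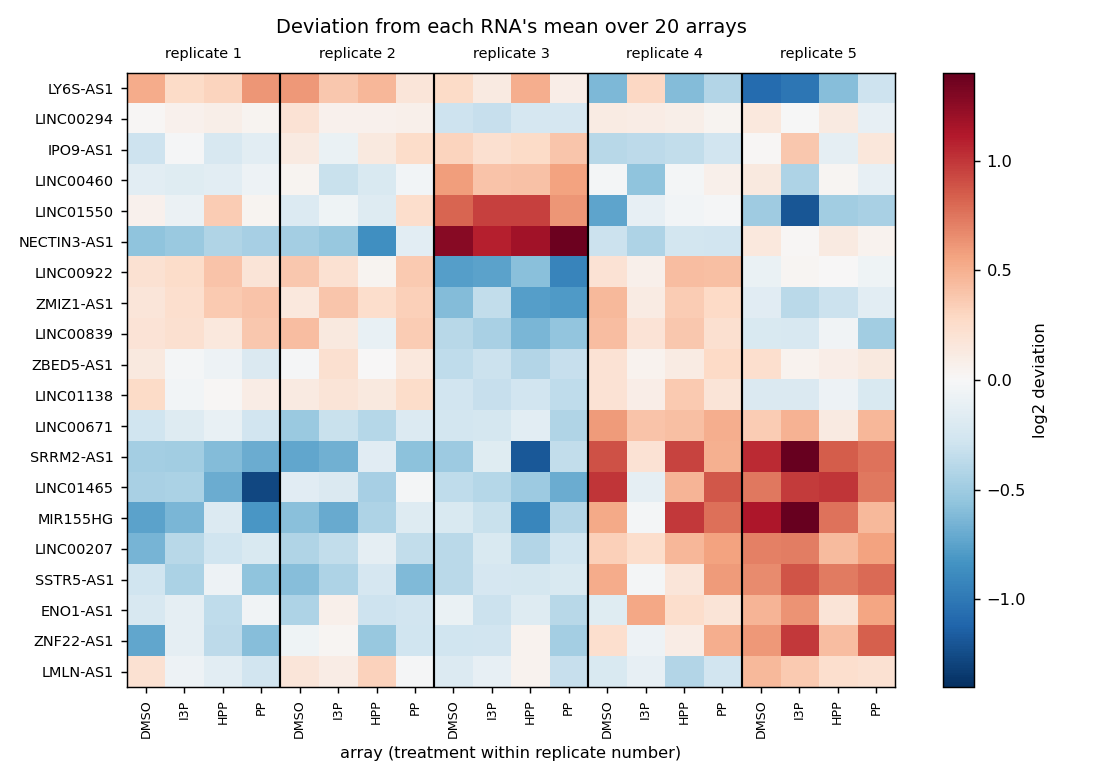
Deviation from each RNA's mean over the 20 arrays (log2, colour) for the 20 members with the smallest p for replicate number, with arrays in columns ordered by number and then by treatment. NECTIN3-AS1, LINC01550 and LINC00460 are high in the 4 arrays of number 3, and SRRM2-AS1, MIR155HG, LINC01465 and SSTR5-AS1 are high in numbers 4 and 5.

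NECTIN3-AS1, named for the gene of a cell adhesion protein, differed most by number. In number 3 it was at 9.95 with DMSO, 9.76 with I3P, 9.84 with HPP and 10.04 with PP, and in the other 16 arrays it lay between 7.82 and 8.82. The number 3 arrays do not overlap with the rest, by 1.53 in the mean, and the number took 97.2% of the sum of squares within groups. LINC01550 was at 9.45, 9.59, 9.59 and 9.25 in number 3 and at 8.99 or lower elsewhere, and LINC00460 was 0.61 higher in number 3 than elsewhere. Without number 3, the call of LINC00460 was lost (adjusted p = 0.979). DHRS4-AS1 and URB1-AS1 were also above all other arrays in number 3, which makes 5 members (4.2%) beside 4.89% of all genes. This split and the next were chosen after the values had been seen, so their counts are descriptions.

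In the opposite direction, all 4 arrays of number 3 lay below the other 16 for 7 members (5.88%, all genes 4.33%). LINC00922 was at 7.81, 7.83, 8.00 and 7.65 in number 3 with DMSO, I3P, HPP and PP, and at 8.48 or higher elsewhere. LINC00294 had number means of 8.70, 8.75, 8.38, 8.73 and 8.69 and LINC01138 of 9.18, 9.27, 8.79, 9.31 and 8.92. ZBED5-AS1 (8.12 in number 3), LINC00601 (7.64), DLGAP1-AS1 and MAGI2-AS3 were the others. ZMIZ1-AS1 (number means 9.37, 9.36, 8.45, 9.38 and 8.83) and LINC00839 (9.10, 9.07, 8.36, 9.17 and 8.63) were lowest in number 3 too, with overlap.

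Another set was high in numbers 4 and 5 together. SRRM2-AS1, named for the gene of a splicing scaffold, had number means of 8.47, 8.51, 8.49, 9.68 and 10.05. MIR155HG, the host of an immune microRNA also called BIC, had means of 8.86, 8.98, 9.00, 10.03 and 10.42, with 8 arrays of numbers 4 and 5 between 9.43 and 10.97 and the other 12 between 8.55 and 9.27. LINC00207 (8.90, 8.98, 8.97, 9.69 and 9.89), LINC00671 (8.70, 8.55, 8.64, 9.39 and 9.27) and SSTR5-AS1 (9.17, 9.04, 9.24, 9.83 and 10.28) showed the same split without overlap. These 5 members (4.2%) stand beside 1.31% of all genes. LINC01465 (8.75, 9.25, 8.97, 10.02 and 10.33), ZNF22-AS1, ENO1-AS1 and LINC00656 were also higher in numbers 4 and 5 on average, with overlap.

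MIR9-3HG was the 1 member (0.84%, all genes 0.408%) whose arrays of numbers 4 and 5 all lay below the rest, with means of 8.76, 8.76, 8.66, 7.99 and 8.13. MIR9-2HG, which gives the same miR-9, had means of 8.50, 8.90, 8.95, 8.51 and 8.51, low in number 1 as well. LY6S-AS1 (9.71, 9.68, 9.52, 8.94 and 8.53) and LIN28B-AS1 (9.46, 9.33, 9.24, 8.49 and 8.45) were lower in numbers 4 and 5 with overlap. LIN28B encodes a protein that binds let-7 precursors. LIN28B itself was not among the measured partners, and a link between LIN28B-AS1 and the let-7 hosts was not tested. MIR100HG, which carries let-7a-2, had means of 10.60, 10.62, 10.68, 10.82 and 10.87 (adjusted p = 0.00253), and MIR99AHG 8.61, 8.76, 8.73, 8.64 and 9.11 (adjusted p = 0.0241). MIR503HG was highest in number 3 (9.30) and lowest in number 4 (8.51, adjusted p = 0.00156).

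SNHG genes differed by number in small steps. SNHG12 had means of 9.02, 9.20, 9.25, 9.37 and 8.95 (adjusted p = 0.00177) and SNHG17 of 9.00, 9.14, 8.98, 9.36 and 8.97 (adjusted p = 0.0008), both highest in number 4. SNHG8 (adjusted p = 0.0127) and SNHG32 (adjusted p = 0.0355) were highest in number 2. SNHG7 (adjusted p = 0.653) and SNHG15 (adjusted p = 0.12) did not pass. Members whose number was not called included KDM4A-AS1 (adjusted p = 0.0706), VIM-AS1 (adjusted p = 0.0503) and MIR31HG (adjusted p = 0.515), while HOXB-AS3 passed narrowly (adjusted p = 0.0478).

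**Figure D4:**
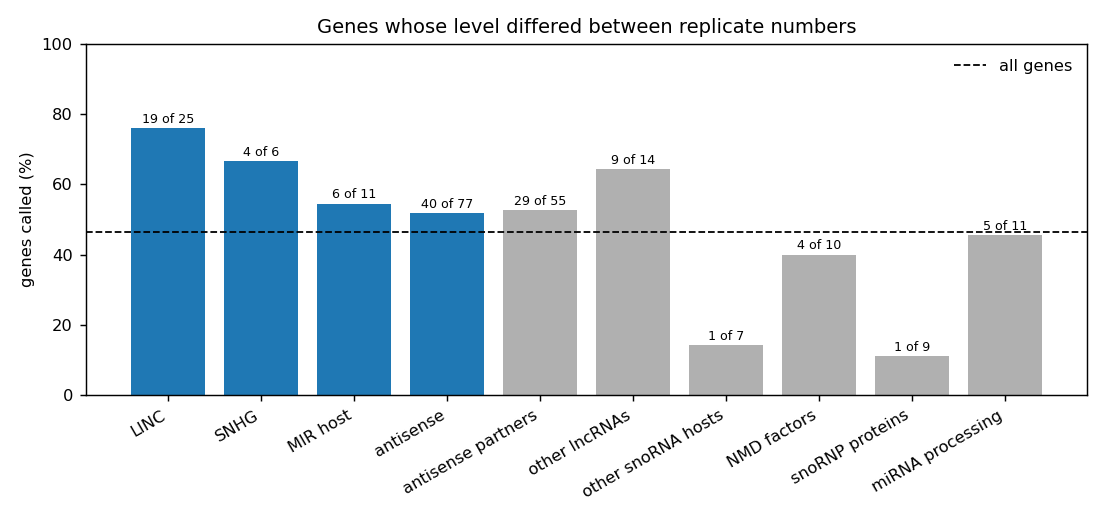
Share of genes (%, vertical axis) past an adjusted p of 0.05 for replicate number in each class of the 119 RNAs (blue) and in other gene lists (grey), with the share of all genes, 46.5%, as a dashed line. LINC RNAs stand at 76% (19 of 25) and snoRNP proteins at 1 of 9.

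Antisense RNAs were set against the genes they are named for. Of the 77, 56 had a measured partner, 55 different genes, of which 29 were called by number. In the gene annotation of RefSeq, 76 partners are found, 64 overlap the interval of the antisense gene, and all 58 pairs with a known strand for both lie on opposite strands. For 17 pairs both genes were called, for 12 the antisense RNA alone, for 12 the partner alone and for 15 neither. Where both were called, 8 pairs had their highest mean in the same number, 4 their lowest, and 3 both. Of all genes 46.5% were called by number, so many pairs of unrelated genes would also both be called. No other gene pairs were counted, so these counts and the pairs below are descriptions.

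For NECTIN3-AS1, SRRM2-AS1 and ENO1-AS1, all called, the partner was not called. The difference within a pair was not tested. NECTIN3 itself had number means of 10.47, 10.51, 10.62, 10.51 and 10.50 (adjusted p = 0.56), a range of 0.15 beside 1.73 for NECTIN3-AS1. SRRM2 had means of 10.81, 10.86, 10.71, 10.61 and 10.73 (adjusted p = 0.101), lowest in number 4, where SRRM2-AS1 was high. ENO1, which encodes the glycolytic enzyme enolase, stood at 13.54, 13.55, 13.48, 13.38 and 13.39 (adjusted p = 0.248), while ENO1-AS1 stood at 9.24, 9.20, 9.19, 9.63 and 9.89 (adjusted p = 0.000408). In none of these 3 pairs, nor for ZNF22-AS1 and ZNF22, do the annotated gene intervals overlap. LMLN-AS1 (adjusted p = 0.000635) and LMLN (adjusted p = 0.58) were a further pair in which the antisense RNA alone was called.

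IPO9-AS1 and IPO9, the gene of a nuclear import receptor, overlap on opposite strands and were both highest in number 3. IPO9-AS1 had means of 8.37, 8.65, 8.84, 8.20 and 8.65 and IPO9 of 10.53, 10.53, 10.89, 10.49 and 10.45. URB1-AS1 with URB1, and TMPO-AS1 with TMPO, were highest in number 3 and shared their lowest number as well. ZNF22-AS1 was highest in number 5 (10.02), where the zinc finger gene ZNF22 was lowest (9.19). ZMIZ1-AS1 was lowest in number 3 and ZMIZ1, a transcriptional coactivator gene, in number 4.

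**Figure D5:**
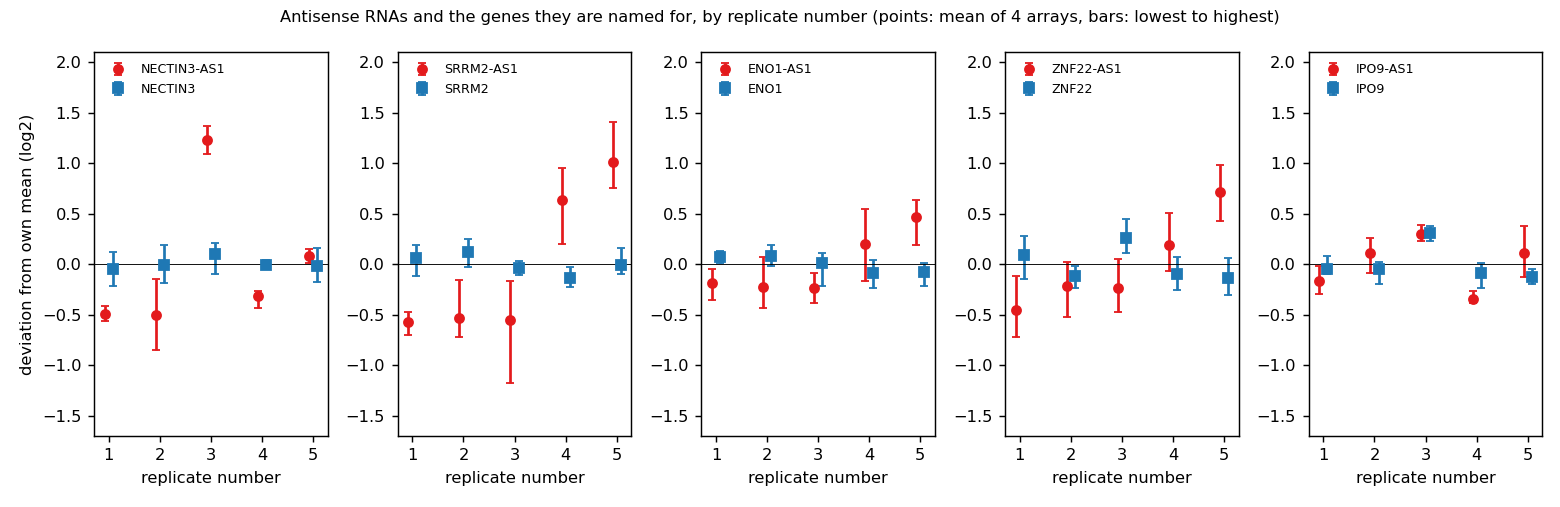
Deviation from the gene's own mean (log2, vertical axis) by replicate number for 5 antisense RNAs (red) and the genes they are named for (blue), as the mean of 4 arrays with bars from the lowest to the highest. NECTIN3-AS1 and SRRM2-AS1 move by more than 1 while NECTIN3 and SRRM2 move by 0.15 and 0.25.

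Related genes gave a frame for these values. Of 14 other long noncoding RNAs that are not named by the rule 9 were called by number, among them TUG1, highest in number 3 at 10.80 (adjusted p = 0.0003), MEG3, an imprinted RNA, highest in number 3 at 9.24 (adjusted p = 0.0009), and LUCAT1, highest in number 5 at 9.35 (adjusted p = 0.0005). MALAT1 was not called (adjusted p = 0.0529). Of 11 microRNA processing factors 5 were called, with DICER1 highest in number 3 (9.46) and lowest in number 4 (8.88). Of 10 nonsense-mediated decay factors 4 were called, of 9 snoRNP proteins 1, and of 7 snoRNA host genes outside the SNHG names 1. Of 17 hypoxia and glycolysis genes 14 were called by number and of 15 p53 targets 6. In these lists 1 gene was called for a compound, the hexokinase gene HK2, which rose with I3P against PP by 0.45 (adjusted p = 0.0288) and, with the block only, against DMSO by 0.42 (adjusted p = 0.00087).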

How the data were processed

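The values used were deposited on a log2 scale. The authors made them with oligo and its RMA method (background correction, quantile normalisation, summary of probes), per the submitters' processing notes. Their versions, the probe set definition and any filter on dim probe sets were not given in the sources used here. Precision is limited by the number of arrays, and RMA can understate differences of dim probe sets.

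Of 12770 probe sets, 11316 had 1 symbol in the platform annotation, 629 several and 825 none. Symbols were updated by RefSeq (GRCh38.p14): 833 changed and 33 found no match. The probe set with the highest mean stood for each of the 33 genes that had more than 1. Printed sequences and their coordinates come from RefSeq tables of the same assembly.

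Treatment groups followed the labels. All 20 arrays were fitted with limma 3.58.1 (lmFit, eBayes) in R 4.3.3, with 2-sided p-values adjusted by Benjamini-Hochberg over 11282 genes and a threshold of 0.05. The code was tested on simulated data. To see whether replicate numbers pair the arrays, deviations from group means were correlated: the 30 same-number pairs all lay above 0.1 (0.163 to 0.714), and the 120 other pairs had a median of -0.157. The number was on this basis used as a block in a second fit, whose values stand beside those of the first where they alter a call.

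The rule for naming took all MIR host and SNHG genes, the 5 members with the smallest p in each comparison, the 20 with the smallest p for number, the 10 with the widest range, and 2 each with the highest and lowest level of a class. DHRS4-AS1, URB1-AS1, TMPO-AS1, DLGAP1-AS1 and MAGI2-AS3 were named after their values were seen. The members and lists were chosen with earlier results of these data known. Alternatives covered scaling, filters, probe set choice, the block and left-out arrays. Plots used matplotlib 3.10.9 and Python 3.11.15.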

Additional observations from a re-analysis of the deposited data

Results flagged for a closer look

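In 15 of 240 groups of 5 arrays (60 named RNAs in 4 treatments), 1 array stood far from the other 4 by Dixon's ratio. Chance gives this in about 5% of groups, but that share is no fair reference here, since some of the 60 were chosen for their range over the arrays or their p for replicate number. Of the 15, 8 were with I3P, 5 with PP and 1 each with DMSO and HPP, and 6 were arrays of replicate 3.

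The ratio compares arrays within 1 treatment, so a level shared by all arrays of a number can be flagged in 1 treatment alone. With I3P, replicate 3 was low for LINC00294 (8.33, group median 8.71), LINC00601 (7.59, median 8.09) and LINC00922 (7.83, median 8.64). Replicate 3 was the lowest array of these RNAs in every other group too (LINC00922 at 7.81, 8.00 and 7.65 with DMSO, HPP and PP). Replicate 5 was high for LINC01465 (10.44, median 9.26) and ZNF22-AS1 (10.29, median 9.23) and low for LY6S-AS1 (8.26, median 9.55) and MIR3667HG (7.65, median 8.36). For LINC01465, replicate 5 was also at 10.20, 10.46 and 10.20 with DMSO, HPP and PP, and for LY6S-AS1 at 8.19, 8.68 and 8.99. In replicate 4, I3P was at 9.34 for LINC01465, beside 10.46, 9.93 and 10.34. For LY6S-AS1 it was at 9.56, beside 8.64, 8.67 and 8.87. For these RNAs I3P replicate 4, not 5, departed from its number. Replicate 1 was low for MIR29B2CHG (7.86, median 8.38). With HPP, replicate 3 was low for LINC00294 (8.41, median 8.73). With PP, replicate 3 was high for LINC00460 (9.48, median 8.88) and NECTIN3-AS1 (10.04, median 8.53). Also with PP, replicate 1 was high for DLGAP1-AS2 (8.29, median 8.12), replicate 5 low for KDM4A-AS1 (8.99, median 9.14) and replicate 4 low for LIN28B-AS1 (8.43, median 9.25). With DMSO, SNHG17 stood out in replicate 4 (9.39, median 9.04).

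MIR503HG had a difference of -0.55 for I3P minus PP, which passed only with the number as a fixed block (limma, adjusted p = 0.0434). It did not pass without the block (limma, adjusted p = 0.812) or with a random block. The call was lost in 14 of 20 block fits that left out 1 array. MIR503HG also lay below DMSO with HPP and above it with PP in 5 of 5 pairs each, against the same 5 DMSO arrays, and neither difference passed. HPP minus PP was -0.59, which did not pass (limma, adjusted p = 0.159 with the block).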

How the results depend on the processing

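For the 6 comparisons of treatments, 216 alternative counts of called members were made and 213 of them stayed at 0. The other 3 were 1 each, MIR503HG for I3P against PP: with the replicate block (adjusted p = 0.0434), and, chosen after seeing the data, with the block after cyclic loess (0.0419) or after setting array medians equal (0.0447). Most of the 216 counts came from fits without the block, among them all that left out arrays. Their 0 counts largely repeat that model. With the number as a random block 0 members were called (MIR503HG at 0.102). With the block and 1 array left out, MIR503HG's adjusted p ran from 0.0175 to 0.149, and with 1 number left out from 0.0427 to 0.217, where the call was lost in 4 of 5 fits. In these block fits SNHG12 was called without I3P replicate 3 (adjusted p = 0.0439), and KDM4A-AS1 without PP replicate 5 (0.0309) or without number 5 (0.0497). Over all 20 arrays the block changed no other call of a member. The 30 named differences kept their sign in all 1064 alternative values. This is a weak check, since they were chosen for small p-values in these data. Settings such as the block also leave a difference unchanged by construction. The count of 69 members called by number became 40 of 55 tested (72.7%, all genes 52.8%) with genes under the 25th percentile of mean level left out, and 42 (35.3%, all genes 27.0%) over the 15 treated arrays alone, which are fewer genes and fewer arrays. It ran from 59 to 68 without 1 array and from 41 (34.5%, all genes 21.9%) to 65 (54.6%, all genes 45.9%) without 1 number, and was 71 after cyclic loess, 69 with equal medians, 68 over all probe sets and 67 of 128 by the platform's symbols. Without number 3 the calls of LINC00922 (adjusted p = 0.0724), LINC00460 (0.979), ZBED5-AS1 (0.246) and LINC00294 (0.796) were lost. Dim signal limits the members, most of which lie in the lower part of the range.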
